A study of Meleagris gallopavo with 24 samples.

Results

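The comparison is of liver with heart in control turkeys (Meleagris gallopavo), that is, in birds fed without salinomycin (Sal, an ionophore given in poultry feed against coccidia) and sampled in week 13. Its members were the libraries whose titles place them in the control liver or the control heart group: 5 liver libraries (controls 1, 2, 4, 5 and 6) and 6 heart libraries (controls 1 to 6), 11 of the 24 libraries of the series. The library liver control 3 held 3729229 counts, against 15706646 to 30096962 in the other control libraries, and was left out. The study left the same library out. The remaining 12 libraries came from birds given Sal at 21 mg/kg feed from week 12, and their liver against heart contrast, which shares no library with the control contrast, is given beside some values. The birds were female turkeys bought at 1 day of age, and the study's methods describe both tissues as taken from the birds of each group, but the labels do not tie a liver to a heart. The methods also give different homogenisation for the tissues, a handheld homogeniser in lysis buffer for liver and the reagent RNA Extracol for heart, so tissue and homogenisation cannot be told apart.

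Hepatocytes, the main cells of the liver, make and export most proteins of blood plasma, produce glucose and ketone bodies for other organs, and in birds are the chief site of fatty acid synthesis and of the purine synthesis that ends in urate. Cardiomyocytes, the contractile cells of the heart, are packed with sarcomeres, a calcium release system and mitochondria, and burn fatty acids, ketone bodies and glucose to keep contracting. Both tissues also hold endothelial cells, fibroblasts and macrophages. In RNA of a whole tissue, fewer cells of a type and less RNA per cell cannot be told apart.

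The tissue labels were met by their markers in all 11 libraries. The 9 hepatocyte markers tested, among them ALB (albumin) and the fibrinogen chains, summed to 163464 to 251014 CPM (counts scaled to a common library size, with totals adjusted by TMM) in liver and to 7.99 to 65.4 CPM in heart. The 6 cardiomyocyte markers tested, among them TNNT2 (cardiac troponin T) and RYR2 (the calcium release channel), summed to 11227 to 33957 CPM in heart and to 0 to 5.71 CPM in liver, where RYR2 and PLN (phospholamban) were at 0 in every library. Some libraries stood apart. Heart control 3 had the highest value of the 6 hearts for all 54 cytosolic ribosomal protein genes and for 38 of 41 nuclear genes of the respiratory chain, and heart control 2 drew 84.4% of its counts from the mitochondrial genome. Liver control 2 held the 5.71 CPM of cardiomyocyte markers, the other livers at most 0.320 CPM. Liver control 1 held 6107 CPM of 11 enterocyte (gut lining) markers and liver control 5 held 1275 CPM, against 163 to 189 CPM in the other livers.

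**Figure D1:**
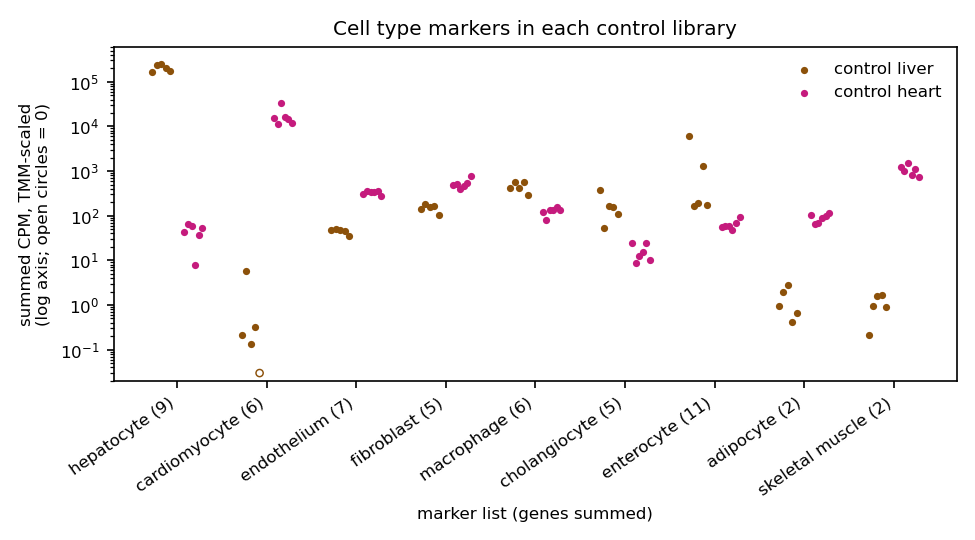
Summed CPM (TMM-scaled, log axis) of the tested markers of 9 cell types in each control library, with the number of genes summed in brackets, 1 point a library and open circles for 0. Hepatocyte markers lay at 163464 CPM or more in liver and at 65.4 CPM or less in heart, cardiomyocyte markers at 11227 CPM or more in heart and at 5.71 CPM or less in liver, and enterocyte markers were spread from 163 to 6107 CPM among the livers.

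The mitochondrial genome, which encodes subunits of the respiratory chain and its own ribosomal RNAs, took a far larger share of the heart transcriptome. It made up 32.1%, 45.7%, 41.8%, 27.5% and 17.1% of all counts in liver controls 1, 2, 4, 5 and 6, and a lowest, median and highest value of 58.5%, 63.8% and 84.4% in heart. Every heart was above every liver. The means were 32.8% ± 11.4 (SD, n = 5) in liver and 66.9% ± 9.16 (SD, n = 6) in heart, with p = 0.00433 in an exact two-sided permutation test, the smallest p that 5 against 6 libraries allow, and 0.00501 after Benjamini-Hochberg adjustment over 22 library measures. Nuclear genes held 14975300 ± 1285670 counts in liver (SD, n = 5) and 9052050 ± 2351010 in heart (SD, n = 6). Total counts averaged 22934500 and 27639600, a difference that did not pass the test (adjusted exact permutation p = 0.0563).

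**Figure D2:**
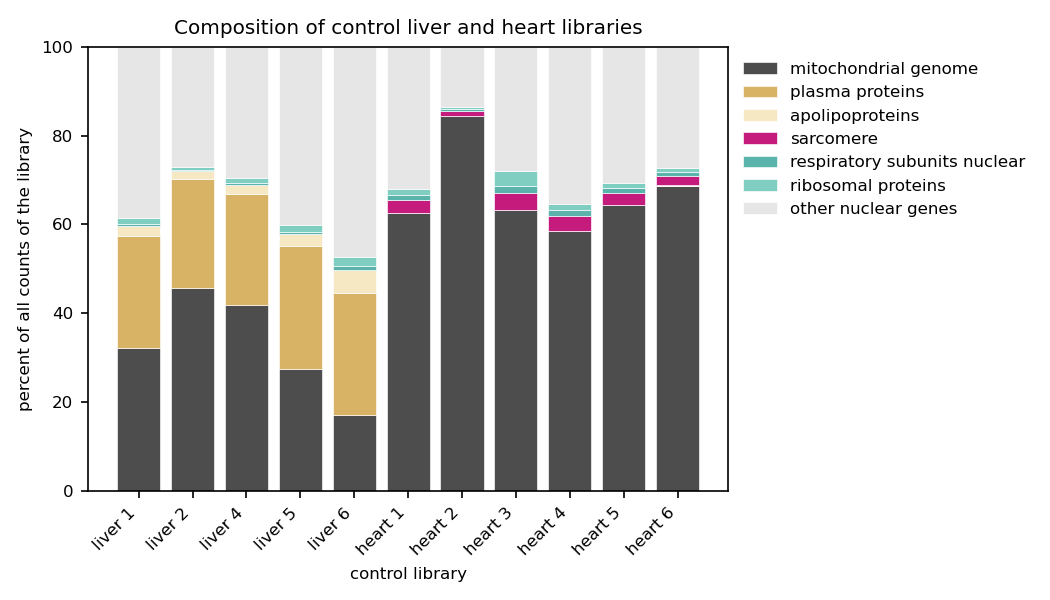
Percent of all counts taken by the mitochondrial genome and by 5 groups of nuclear genes in each of the 5 liver and 6 heart control libraries. Mitochondrial genes filled 17.1% to 45.7% of a liver library and 58.5% to 84.4% of a heart library, while of the 5 groups plasma proteins were the tallest block in liver, and all 5 were thin in heart. Grey stands for all other nuclear genes.

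Within the mitochondrial genome the leading gene was the same in both tissues. COX1, the catalytic subunit of cytochrome c oxidase, gave 30.3% ± 3.57 (SD, n = 5) of the mitochondrial protein-coding counts in liver and 32.1% ± 1.65 (SD, n = 6) in heart. COX2, from the same complex, gave 11.2% ± 2.22 in liver and 7.51% ± 1.20 in heart, and ATP6, a membrane subunit of ATP synthase, gave 11.1% ± 1.97 and 6.44% ± 0.760. ND5, a subunit of complex I, had the other order at 10.04% ± 1.97 in liver and 14.1% ± 2.74 in heart. No test was run on these shares. As single genes in the fit across all genes, 7 of the 13 were called higher in heart (53.8%, against 25.2% of all tested genes). ND3, ND6, COX3 and ATP8 had ranges that did not overlap, and these 4 of 13 were a smaller share than the 42% over all tested genes. COX3 was at -1.82 on the log2 scale, liver minus heart (SE 0.44, edgeR adjusted p = 0.0031). The count of 7 fell to 4, near the 25.2% over all genes, without heart control 2, heart control 6, or liver control 1, 5 or 6.

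The nuclear transcriptome of liver was concentrated in few genes and that of heart was spread over many. The 10 most abundant nuclear genes took 39.9%, 45.5%, 46.4%, 40.4% and 37.4% of nuclear counts in liver controls 1, 2, 4, 5 and 6, and 11.9%, 13.4% and 17.7% (lowest, median, highest) in heart, without overlap (adjusted exact permutation p = 0.00501). It took 23.8 ± 8.20 genes (SD, n = 5) to reach 50% of the nuclear counts of a liver and 261 ± 73.9 genes (SD, n = 6) in a heart. Heart control 3, with 116 genes, was the nearest heart to the livers, which needed 15 to 31. Over all counts, with mitochondrial genes among those ranked, the order of the tissues turned: the 10 most abundant genes took 50.9% ± 9.53 in liver and 66.0% ± 8.98 in heart (adjusted exact permutation p = 0.0227). In the hearts this share ran from 57.8% to 83.1%, close to the 58.5% to 84.4% of the mitochondrial genome. In the livers it ran from 38.2% to 61.5%, beside 17.1% to 45.7% for the mitochondrial genome.

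**Figure D3:**
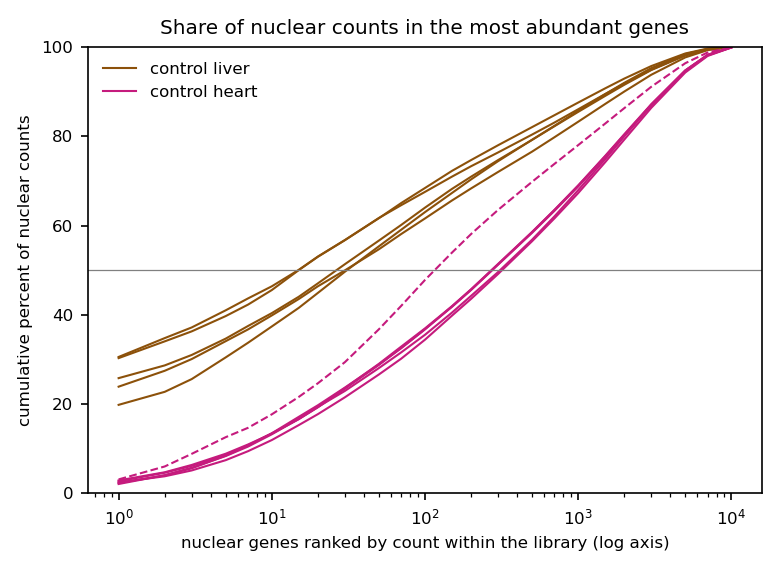
Cumulative percent of nuclear counts against the rank of a gene by its count (log axis), 1 line a control library, with heart control 3 dashed and a grey line at 50%. The livers crossed 50% at 15 to 31 genes and the hearts at 116 to 319 genes.

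Fewer nuclear genes were detected in liver at an equal total of nuclear counts. Every library was thinned to 4696840 nuclear counts, the depth of the shallowest. Liver then had 9943.8 ± 652 genes with at least 1 count (SD, n = 5) and heart 11044.5 ± 89.3 (SD, n = 6), of 11571 nuclear genes (adjusted exact permutation p = 0.00501). The livers ranged from 9102 to 10728 genes and the hearts from 10948 to 11189. The 10 most abundant nuclear genes took a mean of 41.9% of nuclear counts in liver and 13.9% in heart. At the same total, fewer counts were therefore left for the other genes in liver, and the part of this in the difference was not tested. With all Sal libraries included at a common depth of 4229472 nuclear counts, the control livers had 9924.0 ± 640 genes, the Sal livers 10803.3 ± 165 (SD, n = 6), the control hearts 11020.0 ± 94.9 and the Sal hearts 10739.0 ± 241 (SD, n = 6), so the order of the tissues seen in the control birds was not seen in the means of the Sal birds. The difference between the contrasts was not tested. Genes called higher in liver had a median span, introns included, of 8.62 kb, genes called higher in heart 14.8 kb and all tested nuclear genes 10.9 kb. Across genes, Spearman's rho between span and level was 0.032 ± 0.020 in the livers and 0.176 ± 0.037 in the hearts, with heart control 3 lowest of the hearts at 0.106 (adjusted exact permutation p = 0.00501 over libraries, genes not being replicates). In the Sal birds the tissues had the same mean, 0.108 ± 0.0321 in the livers and 0.108 ± 0.0894 in the hearts (SD, n = 6), and the difference between the contrasts was not tested.

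Albumin was by far the largest single component of the nuclear transcriptome of liver. ALB (chromosome 4, 16156341 to 16335646 on Turkey_5.1), the main carrier protein of plasma, took 23.9%, 30.3%, 30.6%, 25.8% and 19.8% of the nuclear counts of liver controls 1, 2, 4, 5 and 6 and a mean of 0.0108% in heart. Its gene model also spans ANKRD17 and LOC100546494 of the RefSeq annotation, so reads from these genes may be counted with it. Also among the most abundant in liver were VTN (vitronectin) at 2.23% ± 0.284 (SD, n = 5), APOA1 (the main protein of high density lipoprotein) at 2.06% ± 0.605 and TF (the iron carrier transferrin) at 1.99% ± 0.528. Of these 4 genes, APOA1 had the highest share in heart, 0.157%, and the other 3 had at most 0.0108%.

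No heart gene reached such a share. The largest in heart was the gene model ENSMGAG00000012321 (chromosome 5, 28928375 to 29111462), which spans the RefSeq genes STXBP6, GJD2 and LOC100303693 and so cannot be given to any of them, at 2.38% ± 0.425 (SD, n = 6). The regulatory and essential light chains of cardiac myosin, MYL2 and MYL3, followed with 1.81% ± 0.691 and 1.76% ± 0.611. Heart control 3 was the highest of the 6 for both, with 3.13% and 2.90%. Another model, ENSMGAG00000003342, spans LOC100542495 and the light chain gene MYL10 and took 1.56% ± 0.278. GAPDH, the glycolytic enzyme often used as a reference gene, took 1.36% ± 0.730 in heart and 0.243% in liver, with heart control 3 again highest at 2.83%. GAPDH was called higher in heart by -1.54 on the log2 scale (SE 0.47, edgeR adjusted p = 0.013), but its CPM ranges overlapped, at 1056 to 2785 in liver and 2429 to 12696 in heart. Without heart control 3 its fold change was -0.95 on the log2 scale, under the threshold.

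In the fit across all genes, 4756 of 10772 tested genes (44.2%) differed between the tissues, with edgeR's adjusted p no higher than 0.05 and a change of 1 or more on the log2 scale (quasi-likelihood test). Of these, 2039 (18.9%) were higher in liver and 2717 (25.2%) in heart, and 4529 tested genes (42%) had CPM ranges that did not overlap. Log2 fold changes are liver minus heart throughout, and the median over all tested genes was -0.21. Without the mitochondrial genes in the scaling this median was -0.06, and 2273 genes were then called higher in liver and 2460 in heart. Differences of 5 or more on the log2 scale were about as frequent in either direction, with 442 genes in liver (4.10%) and 397 in heart (3.69%). The gene lists are read against these shares.

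**Figure D4:**
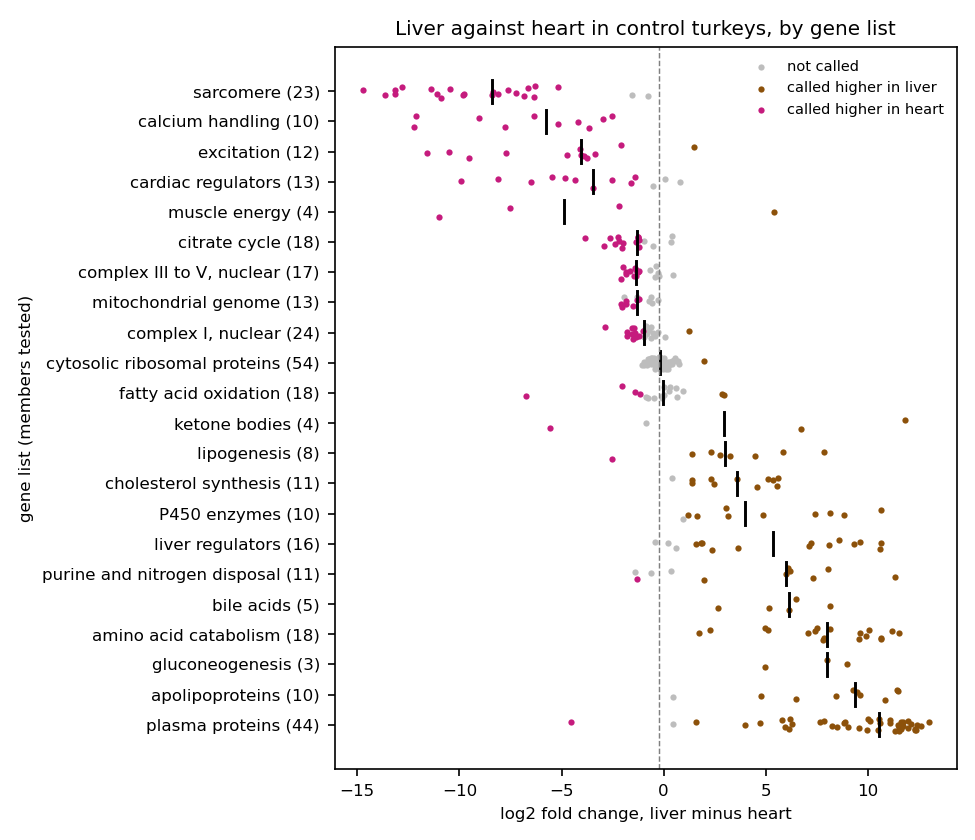
Log2 fold change (liver minus heart) of each tested member of 22 gene lists, coloured by call, with the list median as a black bar and the median of all tested genes, -0.21, dashed. Sarcomere, calcium handling and excitation genes lay far to the heart side and plasma proteins far to the liver side, while ribosomal proteins and fatty acid oxidation lay around the median of all genes. Values of genes at 0 in every library of a tissue depend on the prior count.

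Among plasma proteins, 42 of 44 tested genes were higher in liver and 1 was higher in heart, and 43 had ranges that did not overlap, with a median log2 fold change of 10.54 against -0.21 over all genes. Together they took 39.3% ± 4.91 of nuclear counts in liver (SD, n = 5) and 0.195% ± 0.0469 in heart (SD, n = 6). AMBP, the precursor of alpha-1-microglobulin and bikunin (chromosome 19, 513876 to 519026), had the largest fold change of any tested gene in this direction. It was at 3572, 3747, 4403, 5140 and 5055 CPM in liver controls 1, 2, 4, 5 and 6 and at 0.0832, 0.386 and 1.18 CPM (lowest, median, highest) in heart. The difference was 12.98 on the log2 scale (SE 0.64, edgeR adjusted p = 1.4e-09) and every liver was above every heart. AHSG (fetuin A), SERPINA1 (the elastase inhibitor alpha-1-antitrypsin), APOH, HRG, ALB, RBP4 (the retinol carrier), GC (the vitamin D carrier) and SPP2 followed in that order among plasma proteins, with 12.58 for AHSG and 11.95 for SPP2.

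Coagulation genes were all on the liver side, 15 of 15. FGB, the beta chain of fibrinogen, lay at 4782, 7956, 8029, 4768 and 4735 CPM in the livers and at no more than 2.88 CPM in any heart, and its neighbours on chromosome 4, FGA and FGG, behaved alike, with log2 fold changes of 11.52, 11.71 and 11.51 for FGB, FGA and FGG. F2 (prothrombin) differed by 10.56 (SE 0.37) and F9 by 11.09 (SE 0.41). Smaller differences were those of PROS1 (protein S) at 3.98 (SE 0.22) and F5 (factor V) at 5.92 (SE 0.33). Their heart levels were 8.49 ± 0.747 CPM for PROS1 and 5.78 ± 1.75 CPM for F5 (SD, n = 6).

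Complement genes were higher in liver with 1 exception. Of 11 genes, 10 were higher in liver, for example C5 at 522 ± 88.8 CPM in liver and 0.173 ± 0.0806 CPM in heart (log2 fold change 11.07, SE 0.36). C7, a component of the membrane attack complex (chromosome Z, 11683192 to 11702929), was higher in heart. It stood at 13.8, 15.6, 14.2, 4.67 and 5.95 CPM in the livers and at 188, 257 and 329 CPM (lowest, median, highest) in the hearts, -4.53 on the log2 scale (SE 0.37, edgeR adjusted p = 2e-07), and at -3.13 in the Sal birds. The other components of that complex in the list, C6, C8A, C8B and C8G, were all higher in liver by 5.82 or more. SERPINF1 (pigment epithelium derived factor) was the plasma protein not called, at 196 ± 56.4 CPM in liver and 144 ± 40.8 CPM in heart.

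Lipoprotein genes followed the plasma proteins, with 9 of 10 higher in liver. APOB, the structural protein of very low density lipoprotein, was at 3890, 6003, 4983, 4770 and 4706 CPM in liver and at 0.610 to 5.42 CPM in heart (log2 fold change 10.84, SE 0.59). APOA1 differed least among the called members, by 4.79 (SE 0.36), with heart levels of 291, 506 and 693 CPM (lowest, median, highest). APOA4 varied most among the livers, at 4051, 3989, 1833, 6284 and 18598 CPM, and liver control 6 was the highest. PLTP was not called and was low in both tissues, with 1.82 ± 1.02 and 1.29 ± 0.659 CPM.

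Amino acid breakdown was called higher in liver for all 18 genes tested, with a median of 7.99. HPD, which acts in tyrosine breakdown, was at 1476, 1955, 2847, 2775 and 1888 CPM in the livers and below 1 CPM in each heart (log2 fold change 11.52, SE 0.48, edgeR adjusted p = 3.7e-10). TDO2, the first enzyme of tryptophan breakdown, differed by 11.20 (SE 0.45) and FTCD, of histidine breakdown, by 10.67 (SE 0.50). CTH (transsulfuration) and AMT (glycine cleavage) differed least, by 1.75 and 2.28, and each had ranges that did not overlap.

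Purine synthesis, the route by which birds pack waste nitrogen into urate, was mostly higher in liver. Of 9 genes of purine synthesis and urate, 6 were called there, 1 in heart and 2 were not called. With 2 genes of the urea cycle, the purine and nitrogen list had 7 of 11 called in liver, 1 in heart and 3 not called. GART was at 1079, 1492, 2162, 1748 and 2102 CPM in the livers and at 5.19, 6.54 and 7.43 CPM (lowest, median, highest) in the hearts, 8.04 on the log2 scale (SE 0.30, edgeR adjusted p = 2e-10). PPAT, the committed step, differed by 6.00, PAICS by 6.10, ADSL by 6.21 and ATIC, the last step to inosine monophosphate, by 7.30. The first step, phosphoribosyl pyrophosphate synthetase, was divided between its forms. PRPS2 was at 958 ± 284 CPM in liver and 0.316 ± 0.211 CPM in heart (11.33, SE 0.51), while PRPS1 was at 5.07 ± 2.36 CPM in liver and 12.6 ± 1.59 CPM in heart (-1.30, SE 0.29, edgeR adjusted p = 0.0018). Neither ADA (adenosine deaminase) nor GLUL (glutamine synthetase) was called, the latter at 167 ± 93.6 and 129 ± 32.0 CPM. Of the urea cycle, which birds lack as a complete route in liver, CPS1 was at 1.69 ± 0.850 CPM in liver and 0.385 ± 0.209 CPM in heart and was called, and ASS1, at 0.321 ± 0.365 and 0.977 ± 0.155 CPM, was not.

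All 3 genes of glucose production tested were higher in liver. PCK1, the rate-limiting enzyme of gluconeogenesis, was at 376, 302, 115, 278 and 198 CPM in the livers and at most 2.52 CPM in a heart (log2 fold change 8.01, SE 0.64). In the Sal birds the PCK1 difference was 1.89. SLC37A4 (glucose 6-phosphate transport) and SLC2A2 (the liver glucose transporter) differed by 4.96 and 8.97 in the controls. BDH1, which interconverts the ketone bodies hydroxybutyrate and acetoacetate, was higher in heart. It was at 21.8, 4.65, 9.11, 11.3 and 4.20 CPM in the livers and at 347, 484 and 643 CPM (lowest, median, highest) in the hearts, -5.56 on the log2 scale (SE 0.47, edgeR adjusted p = 2.9e-07).

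Fatty acid and cholesterol synthesis were mostly higher in liver, 7 of 8 and 10 of 11 genes. ACLY, which makes cytosolic acetyl-CoA from citrate, was at 463 ± 180 CPM in liver and 21.0 ± 3.03 CPM in heart (4.45, SE 0.27), and ELOVL6, a fatty acid elongase, differed by 7.87 (SE 0.50). FASN (fatty acid synthase) was at 10.7, 19.4, 50.2, 13.3 and 13.5 CPM in the livers and SCD (the desaturase) at 23.4, 1.73, 138, 11.3 and 14.0 CPM, both with liver control 4 highest. Their differences were 2.33 (SE 0.36) and 5.86 (SE 0.92). ACSS2, which makes acetyl-CoA from acetate, was the lipogenic gene higher in heart, at 63.9 ± 11.0 CPM against 10.9 ± 5.02 CPM (-2.54, SE 0.27). In cholesterol synthesis, HMGCS1, SC5D and SQLE led with 5.61, 5.58 and 5.36, and FDPS, at 36.3 ± 18.5 and 27.7 ± 6.72 CPM, was not called.

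Detoxification and bile acid genes were on the same side. Of 10 cytochrome P450 genes, 9 were higher in liver, led by CYP1A5, a dioxin-responsive enzyme, with 930.4 ± 330.2 CPM in liver and 0.504 ± 0.350 CPM in heart (10.64, SE 0.56). CYP3A37, a turkey member of the drug-metabolising 3A family, was at 1690, 2030, 1476, 2002 and 2619 CPM in the livers and at 0.610 to 11.0 CPM in the hearts (8.85, SE 0.66). CYP7A1, the rate-limiting enzyme of bile acid synthesis, was at 70.3, 100.2, 64.6 and 61.3 CPM in liver controls 2, 4, 5 and 6 and at 3.99 CPM in liver control 1. It still did not overlap with heart, whose highest value was 0.425 CPM (8.15, SE 0.82). All 5 bile acid genes measured were higher in liver.

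Of the liver regulators, 13 of 16 were called higher in liver and none in heart. HNF4A, a nuclear receptor that defines the hepatocyte, was at 31.5, 14.6, 11.2, 19.1 and 19.8 CPM in the livers and at most 0.135 CPM in a heart (7.09, SE 0.43). NR1H4, the bile acid receptor, differed by 9.62 (SE 0.47) and GCGR, the glucagon receptor, by 8.59 (SE 0.36). MLXIPL, the glucose-sensing activator of lipogenesis, was at 119 ± 33.8 CPM in liver and 0 in every heart. CEBPB, PROX1 and CUX2 were not called, and PROX1 stood at 13.3 ± 9.12 CPM in liver and 17.7 ± 4.91 CPM in heart.

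On the heart side, 21 of 23 tested sarcomere genes were higher in heart and none in liver, with a median of -8.41. They took 7.82% ± 1.22 of nuclear counts in heart (SD, n = 6) and 0.0113% ± 0.0036 in liver (SD, n = 5). MYL2 (chromosome 17, 6106147 to 6110064) had the largest fold change of all tested genes. It was at 0.0353, 0.619, 0.0893, 0 and 0 CPM in liver controls 1, 2, 4, 5 and 6 and at 3536, 4908 and 14056 CPM (lowest, median, highest) in heart, -14.73 on the log2 scale (SE 1.04, edgeR adjusted p = 4.5e-08). The highest heart was heart control 3 and the highest liver was liver control 2. TNNT2 was at 0 in 4 livers and at 1.28 CPM in liver control 2, which was the highest liver for 14 of the 23 sarcomere genes. In heart TNNT2 was at 1966, 3344 and 3559 CPM (-13.17, SE 1.23). In the Sal birds MYL2 differed by -10.90 and TNNT2 by -10.34, smaller than in the controls, while the list median was -9.01, larger than in the controls. These differences between the contrasts were not tested.

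The other parts of the sarcomere followed. TNNC1, the calcium-binding troponin, differed by -10.89 (SE 1.12), and ACTN2, which cross-links actin at the Z-disc, by -11.41 (SE 1.01). MYOZ2, a Z-disc protein that binds calcineurin, was at 0 in 4 livers and 0.0447 CPM in liver control 4, against 699 to 1986 CPM in heart (-13.62, SE 0.58). CSRP3, a Z-disc stretch-sensing protein, differed by -13.13 (SE 0.99). Of the genes that were not called, BAG3, a chaperone partner used in many cell types, was at 49.4 ± 8.87 CPM in liver and 82.9 ± 24.2 CPM in heart (-0.75, SE 0.22), and TMOD4 was below 4 CPM on average in both. Titin is split in the annotation used by the files. The 8 gene models inside the RefSeq gene TTN (chromosome 7, 14635350 to 14871051), looked up after their values had been seen, summed to 295 ± 74.7 CPM in heart and 0.0071 ± 0.016 CPM in liver. ACTA1, the actin of skeletal muscle that heart muscle also makes, was at 1065 ± 266 CPM in heart and 0.995 ± 0.631 CPM in liver.

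**Figure D5:**
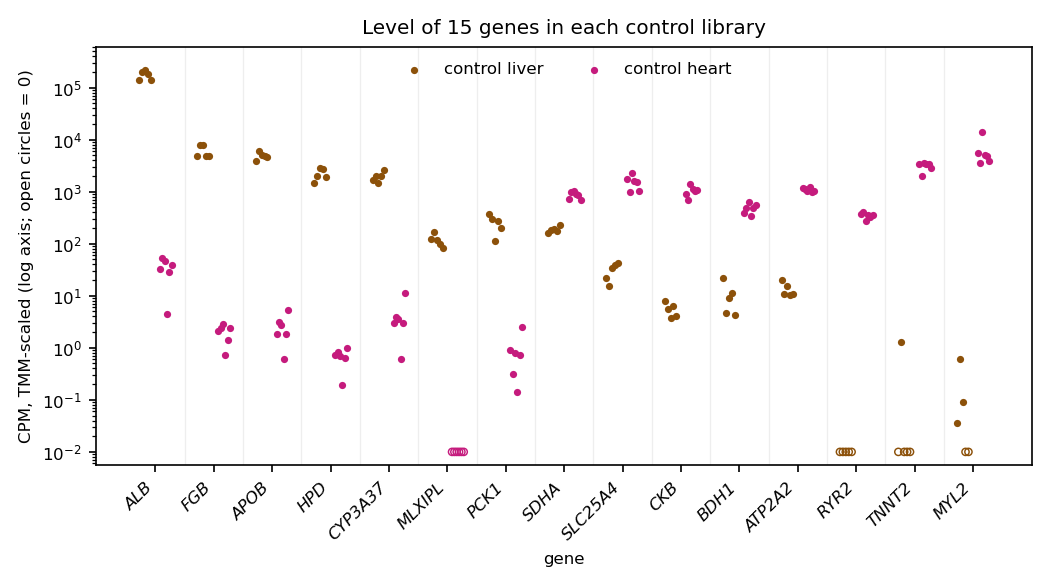
CPM (TMM-scaled, log axis) of 15 genes in each of the 5 liver and 6 heart control libraries, with open circles for 0. The 7 genes from ALB to PCK1 were higher in every liver than in any heart, and the 8 genes from SDHA to MYL2 were higher in every heart than in any liver.

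Calcium handling was called higher in heart for all 10 genes tested. RYR2, the release channel of the sarcoplasmic reticulum, was at 268, 351 and 403 CPM (lowest, median, highest) in heart and at 0 in all 5 livers, at least 2565-fold higher against a floor of 3 counts per library. CASQ2, the calcium store protein, was at 327, 363 and 414 CPM in heart and 0 in liver, at least 2728-fold higher. ATP2A2, the pump that returns calcium to the store and is also found in other cells, was at 19.6, 10.9, 15.4, 10.2 and 11.0 CPM in the livers and at 990, 1080 and 1206 CPM in the hearts (-6.34, SE 0.29, edgeR adjusted p = 8.9e-10). Its regulator PLN was low, at 2.65 ± 0.860 CPM in heart and 0 in liver, at least 19.7-fold. The list's median was -5.74, or -5.32 with the 3 genes at 0 in liver set to their bounds.

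Excitation genes went the same way, 11 of 12. BVES and POPDC2, membrane proteins of the Popeye family that bind cyclic AMP, were at 234 ± 93.6 and 344 ± 44.9 CPM in heart, and BVES, whose model also spans POPDC3, was at 0 in liver. GJA5, a gap junction protein of atrium and conduction system in mammals, was at 17.1, 21.1 and 27.4 CPM in heart and above 0 in only 1 liver, at 0.137 CPM (-7.72, SE 0.48). GJA1, the gap junction protein of mammalian ventricle, was at 9.25 ± 2.25 CPM in heart and 0.612 ± 0.420 CPM in liver (-3.77, SE 0.60). KCNJ3, a channel opened by the vagus nerve's transmitter, was at 55.8 ± 9.21 CPM in heart and 0 in liver. KCNJ11, the pore of the ATP-sensitive potassium channel, was the exception, at 3.54 ± 2.14 CPM in liver and 1.22 ± 0.443 CPM in heart (1.48, SE 0.46, edgeR adjusted p = 0.015) with ranges that overlapped. The call of KCNJ11 was lost with the replicate block, with liver control 3 included and with glmTreat, a test against a log2 fold change of 1, and its adjusted p over all alternatives ran from 0.0029 to 0.18 (edgeR). Its partner ABCC9 was higher in heart (-4.04, SE 0.24).

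Among cardiac regulators, 10 of 13 were higher in heart. SMYD1, a muscle methyltransferase needed for sarcomere assembly, differed by -9.94 (SE 0.65) and MYOCD, the coactivator of the serum response factor SRF, by -6.50 (SE 0.69), with SRF itself at -4.34 (SE 0.47). TBX20 was at 15.2, 21.5 and 25.3 CPM in heart and 0 in liver. The GATA factors did not move together. GATA5 was at 145, 66.3, 91.0, 95.4 and 120 CPM in the livers and 218, 321 and 386 CPM in the hearts (-1.59, SE 0.24, edgeR adjusted p = 8e-05), while GATA6 was at 33.4 ± 7.15 CPM in liver and 19.2 ± 3.004 CPM in heart (0.80, SE 0.18, edgeR adjusted p = 0.0022), under the fold threshold. PPARGC1A, the coactivator of mitochondrial biogenesis, was at 46.3 ± 9.98 and 44.2 ± 16.6 CPM (0.07, SE 0.24) and MEF2C at 23.02 ± 7.99 and 33.6 ± 8.57 CPM (-0.54, SE 0.23), and neither was called.

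The energy lists divided by pathway. The citrate cycle and pyruvate dehydrogenase had 14 of 18 genes higher in heart and none in liver, with a median of -1.30. CS (citrate synthase) differed by -2.63 (SE 0.26) and SUCLA2, the ATP-forming subunit of succinyl-CoA ligase, by -3.84 (SE 0.41), whereas SUCLG2, the GTP-forming subunit, was not called at 58.4 ± 14.1 CPM in liver and 44.9 ± 4.94 CPM in heart (0.38, SE 0.18). SDHA, a subunit of succinate dehydrogenase and a reference gene of the study's qPCR in turkey, was at 160, 183, 191, 172 and 233 CPM in the livers and at 681, 875 and 1031 CPM in the hearts (-2.20, SE 0.22, edgeR adjusted p = 1.3e-06). No heart overlapped with a liver. The study's qPCR used SDHA together with PGK1 and compared Sal-exposed with control birds within a tissue, not liver with heart.

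Nuclear subunits of complex I were higher in heart in 11 of 24 genes (45.8%) and those of complexes III to V in 11 of 17 (64.7%). Over all tested genes the share was 25.2%. In liver 1 complex I gene, NDUFV3, was higher. The counts in heart fell from 11 to 5 and from 11 to 6 without heart control 3, the highest heart for 38 of the 41 genes. Without that library 2535 of 10697 tested genes were called higher in heart. Complex I then lay below the share over all genes and complexes III to V above that share. NDUFS1, an iron-sulfur subunit of complex I, was called with and without heart control 3, at 122 ± 21.9 CPM in liver and 415 ± 15.3 CPM in heart (-1.77, SE 0.19, and -1.78 without heart control 3). The Sal birds had 22 of 24 and 16 of 17 called higher in heart. Cytosolic ribosomal protein genes were called in liver for 1 of 54 and in heart for none, with a median of -0.19 close to that of all genes. Without heart control 3, 8 of the 54 were called higher in liver. That was below the share over all genes in the same fit, 2070 of 10697. As a share of nuclear counts ribosomal protein genes were higher in heart, at 1.42% to 2.47% in the livers and 2.97% to 9.13% in the hearts (adjusted exact permutation p = 0.00501). The 9.13% was that of heart control 3, and the next heart had 3.73%. Plasma proteins took 39.3% of nuclear counts in liver and 0.195% in heart, so the total behind this share differed in make-up between the tissues. A share without the plasma proteins was not calculated.

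Of 18 fatty acid oxidation genes, 4 were higher in heart (22.2%, against 25.2% of all tested genes) and 2 in liver (11.1%, against 18.9%), both below the shares over all genes, and the median was -0.04. ACADL, ACADS and HADHA, which catalyse steps of the beta oxidation spiral, differed by -0.10 (SE 0.25), -0.08 (SE 0.20) and 0.04 (SE 0.26). The genes called higher in heart were CD36, LPL, HADH and ETFDH, and those in liver were CPT1A and ECI2. LPL, which frees fatty acids from plasma lipoproteins, was at 1.38, 1.95, 0.179, 0.457 and 4.97 CPM in the livers and at 161, 201 and 233 CPM in the hearts (-6.76, SE 0.69). CPT1A, the liver form of the enzyme that admits fatty acids to mitochondria, was at 339 ± 160 CPM in liver and 43.9 ± 8.42 CPM in heart (2.95, SE 0.32), and the fatty acid receptor CD36 differed by -1.15 (SE 0.24).

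Creatine genes were split between its maker and its users. GAMT, which makes creatine, was at 172, 243, 149, 271 and 394 CPM in the livers and 2.36, 5.14 and 10.9 CPM in the hearts (5.43, SE 0.40). The creatine transporter SLC6A8 (-2.21, SE 0.33) and the creatine kinases CKB (-7.54, SE 0.35) and CKMT2 were higher in heart. CKB was at 1039 ± 241 CPM in heart and 5.50 ± 1.67 CPM in liver, and CKMT2, the mitochondrial form, was at 158 ± 36.4 CPM in heart and 0 in liver, at least 1174-fold.

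Of 54 genes listed as pairs of a liver form and another form of an enzyme or carrier, 26 were measured, with both members in only 3 pairs. The glucose transporters SLC2A2 and SLC2A1 went in opposite directions, with 278 ± 88.1 CPM in liver and 0.483 ± 0.530 CPM in heart for SLC2A2 (8.97, SE 0.71) and 1.11 ± 0.933 CPM and 19.2 ± 5.38 CPM for SLC2A1 (-4.02, SE 0.63). So did the glycerol phosphate dehydrogenases, GPD1 at 3.35 (SE 0.39) and GPD1L at -6.08 (SE 0.52). Of the adenine nucleotide carriers, which exchange ADP for ATP across the inner mitochondrial membrane, SLC25A4, the muscle form, differed by -5.63 (SE 0.40), from 30.8 ± 11.5 CPM in liver to 1531 ± 479 CPM in heart. SLC25A5, the form of most tissues, was at 144 ± 43.4 and 179 ± 66.3 CPM (-0.32, SE 0.27, edgeR adjusted p = 0.35).

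Of the pairs with 1 form measured, GYS2, the liver glycogen synthase, differed by 10.05 (SE 0.42), PYGL, the liver glycogen phosphorylase, by only 2.23 (SE 0.26), and PFKL, the liver phosphofructokinase, was not called (0.78, SE 0.25). HK1, the hexokinase of most tissues, differed by -5.48 (SE 0.74) and ACACB, which makes the malonyl-CoA that restrains fatty acid entry, by -4.66 (SE 0.86). LDHB, the heart form of lactate dehydrogenase in mammals, was not called. It was at 1336, 1775, 1703, 2145 and 5410 CPM in the livers and at 794, 1308 and 1919 CPM in the hearts (0.95, SE 0.39, edgeR adjusted p = 0.052).

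Genes found in 1 tissue only, with at least 10 counts in every library of that tissue and 0 in every library of the other, numbered 175 in heart and 31 in liver, 103 and 17 of them with a symbol. Since the rule fixes their contrast, they are described without a test. In heart, 65 had a mean of at least 10 CPM, and the highest with a symbol were CCDC141, whose gene lies next to titin (chromosome 7, 14574714 to 14630228), CASQ2, RYR2, BVES, NDRG4, CKMT2, UNC45B (a myosin chaperone), CAP2, MSS51 and CAV3 (muscle caveolin). CCDC141 was at 526 ± 148 CPM, at least 3907-fold above a floor of 3 counts per liver library, and CAV3 at 115 ± 59.8 CPM, at least 856-fold. In the 6 Sal livers, 30 of the 175 genes had a count in every library and 21 in none. CCDC141 had 2 to 19 counts there and CAP2 6 to 37, against 12279 counts or more of CCDC141 in each control heart. Some genes with low counts in heart reached similar or higher counts in the Sal livers. GFI1B had 9 to 101 there and 18 to 37 in the control hearts, and CGGBP1 had 3 to 46 and 13 to 24. For such genes the absence from liver held in the control libraries only.

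In liver, 12 of the 31 had a mean of at least 10 CPM. Among the highest with a symbol were INHBC, an activin subunit made by hepatocytes, at 124 ± 41.1 CPM and at least 1085-fold, MLXIPL at 119 ± 33.8 CPM and at least 1039-fold, ELOVL2 (elongation of very long polyunsaturated fatty acids) at 49.6 ± 34.9 CPM, CTSS, SLC39A8 (a zinc and manganese importer), SLC6A12 (betaine transport), AGXT (glyoxylate detoxification), MRAP and ETV3L. The CTSS model also spans CTSK and the MLXIPL model TBL2. In the 6 Sal hearts 22 of the 31 genes were at 0 throughout and none had a count in every library. Of the shallow liver control 3, which was not used, 14 of the 31 genes had a count and none of the 175 heart genes had.

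Other cell types differed between the tissues as well. Of 7 endothelial markers, 6 were higher in heart, with sums of 34.6 to 50.5 CPM in liver and 278 to 359 CPM in heart, and PECAM1 differed by -4.21 (SE 0.32). Fibroblast markers were higher in heart for 4 of 5 (COL6A3 -5.72, LUM -3.42, DCN -1.92, PDGFRA -4.77) and in liver for FBLN1 (2.40, SE 0.23). Macrophage markers were higher in liver for 5 of 6: MARCO, a scavenger receptor, was at 87.5, 137, 135, 111 and 63.8 CPM in the livers and 0.633 to 3.07 CPM in the hearts (5.98, SE 0.40), while CSF1R, at 31.6 ± 10.7 and 62.5 ± 14.7 CPM, was not called. Of 2 fat cell markers tested, 1 was higher in heart. ADIPOQ was at 64.5, 91.8 and 113 CPM in heart and at most 1.33 CPM in liver (-6.98, SE 0.47), and FABP4, at 0.735 ± 0.649 CPM in liver and 2.21 ± 1.21 CPM in heart, was not called. The part of these cell types in the differences of other genes was not tested.

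The 11 enterocyte markers were all called higher in liver, yet only ANPEP, which hepatocytes of mammals also express, had ranges that did not overlap. Liver control 1 was the highest liver for all 11 and for MEP1A (meprin A, a brush border protease) it held 1177 CPM, against 1.28 to 214 CPM in the other livers. With the replicate block or with limma-voom, 1 of the 11 was called. Without liver control 1, 9 were called in liver and LCT (lactase) was called in heart, at a log2 fold change of -2.80. Only 1 of the 11 was higher in each of liver controls 2, 4 and 6 than in every heart, and in the Sal birds 1 of the 11 was called. Their part in other differences was not tested.

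The contrast was repeated in the Sal birds, which share no library with it. Of 4609 called genes that could be tested in the Sal birds, 3246 were called there in the same direction, 21 in the opposite direction and 1342 were not called, where 47.7% of all tested genes were called (23.7% higher in liver and 24.0% in heart). Spearman's rho of the fold changes was 0.775 across 10473 genes, which are not independent of each other. Among the lists, the plasma protein median was 10.90 in the Sal birds and the sarcomere median -9.01, against 10.54 and -8.41 in the controls. Ribosomal proteins differed more, with 32 of 54 called higher in heart in the Sal birds and none in the controls, a difference between contrasts that was not tested.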

How the data were processed

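mRNA libraries of turkey liver and heart were sequenced as paired reads by the study, trimmed with fastp, aligned with STAR and counted with RSEM on Turkey_5.1. The deposited table holds RSEM expected counts per gene, which the authors had left unnormalised and which were whole numbers. Versions, strand setting and gene filter are not given in the sources used. Another 12 columns of the file matched no sample and were not used. The authors' 2 comparison tables hold DESeq2 fold changes and p-values between Sal-exposed and control birds, which were not used. Gene positions, symbols and biotypes were read from one of them. Symbols came from it (4981 genes) or from RefSeq genes with at least 50% overlap of both spans (3477), and 3129 genes kept their identifier. Of all models, 2043 hold another protein-coding RefSeq gene.

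Genes were filtered with filterByExpr, scaled by TMM and tested with the quasi-likelihood test of edgeR 4.0.16 in R 4.3.3 (prior count 2, Benjamini-Hochberg adjustment over all genes tested), with calls made where the adjusted p was 0.05 or lower and the log2 fold change 1 or more either way. The same fit was run on the 12 Sal libraries. Library measures were compared by exact two-sided permutation tests (scipy 1.17.1). Alternatives were DESeq2 1.42.0, limma 3.58.1 (voom), other scalings, filters, count minimums and thresholds, a replicate block, and other sets of libraries. The edgeR fit was tried on simulated counts with a fixed spread and few changed genes. That setting is simpler than this contrast, so it cannot speak to the scaling between the tissues. Per the study's methods, the libraries of a tissue came from separate birds. The labels do not tie a liver to a heart, so the tissues were fitted as independent groups. The p-values, those of the permutation tests included, therefore take no account of birds that gave both tissues. The members and gene lists were chosen with earlier results of these data known. Genes were named from the lists, as the 10 largest called changes in each direction among genes that had a symbol, averaged 100 counts or more and had ranges that do not overlap, as the 5 most abundant nuclear genes of each tissue, and as the 10 most abundant genes with a symbol found in 1 tissue only. Genes of these lists that matched no row by symbol were not analysed here, promoter sequences were not used, and some genes that meet these rules are not reported here.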

Additional observations from a re-analysis of the deposited data

Results flagged for a closer look

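In 13 of 52 combinations of a tissue and a library measure, 1 library lay far from the others of its tissue by the gap test of Dixon, which chance passes in about 1 of 20. Several measures rest on the same genes, so the combinations are not independent of each other. Heart control 3 accounted for 6 of them. Its 10 most abundant nuclear genes took 17.7% of nuclear counts (the nearest heart had 13.5%), and 116 genes made up 50% of nuclear counts (nearest 272). Sarcomere genes took 10.2% of its nuclear counts (nearest 7.79%), ribosomal protein genes 9.13% (nearest 3.73%) and nuclear respiratory subunits 4.25% (nearest 3.13%). Its cardiomyocyte markers summed to 33957 CPM (nearest 16368 CPM).

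Heart control 2, the library with the largest mitochondrial share, was highest for RHAG, the red blood cell marker measured, at 0.00187% of nuclear counts (nearest 0.00106%) and 5.51 CPM (nearest 3.26 CPM). Heart control 6 was highest for fibroblast markers at 796 CPM (nearest 539 CPM). Liver control 6 had apolipoprotein genes at 6.46% of nuclear counts (nearest 3.59%) and the lowest endothelial markers at 34.6 CPM (nearest 46.6 CPM). Liver control 2 had 5.71 CPM of cardiomyocyte markers (nearest 0.320 CPM), and liver control 1 had 6107 CPM of enterocyte markers (nearest 1275 CPM).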

How the results depend on the processing

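The count of 4756 called genes lay between 3447, with a test against a log2 fold change of 1 (glmTreat), and 5418, with limma-voom, and DESeq2 gave 5324. The share of calls higher in liver, 42.9%, was 35.4% with limma-voom and 49.4% over the 23 libraries. With 1 library left out at a time, 4424 to 4956 genes were called, 1945 to 2189 in liver and 2235 to 2870 in heart. The number of genes found in heart only was then 176 to 245 and in liver only 31 to 38, the difference in detected genes was -1296.8 to -890.25, in mitochondrial share -37.3 to -30.2 percentage points and in the share of the 10 most abundant genes -17.7 to -11.7. Genes found in liver only rose from 31 to 85 where up to 2 counts were allowed in heart, and fell to 13 with liver control 3 included. The difference in the share of the 10 most abundant genes was -15.1 over all counts and 28.1 over nuclear counts. The first ranked all genes, mitochondrial ones included, and the second nuclear genes only, so both the genes and the denominator changed. The difference in genes detected was -1692.9 at a minimum of 10 counts in place of -1100.7 at 1. The labels share replicate numbers between tissues, and the deviations of same-numbered libraries from their tissue means had r of -0.195 to 0.119 over 5 numbers. The best-matching heart of liver control 2 was heart control 2, and livers 1, 4, 5 and 6 matched best with a heart of another number. A bird need not deviate alike in both tissues, so this cannot tell whether a number marks the same bird. With the replicate block, 4443 of 10772 tested genes were called, 1815 in liver and 2628 in heart. Complex I had 5 of 24 called in heart, below the share over all genes. Complexes III to V had 5 of 17, above that share. Ribosomal proteins had 7 of 54 called in liver and enterocyte markers 1 of 11, both below the share over all genes. Over 431 named genes and 9429 values, 9132 kept direction and call, 194 lost the call, 99 gained it and 4 reversed. These were LCT, at -1.46 with limma-voom, -1.65 with the replicate block and -2.80 without liver control 1 (up to 4.83 with another library left out), and SLC5A1, at -0.26 with the replicate block. The glmTreat test left 8 of 18 citrate cycle, 3 of 24 complex I and 3 of 17 complex III to V genes in heart. Under it 1946 of 10772 tested genes were higher in heart. The citrate cycle lay above that share, complex I below it and complexes III to V close to it. A count of 0 allows up to 3 expected counts in a library. A gene found in 1 tissue only was therefore not detected in the other at this depth, which does not mean that it was absent.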
